A study of Homo sapiens with 6 samples.

Results

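The annexins are a family of proteins that bind phospholipid membranes, most of them when calcium is present. The genes described here were 10 annexins (ANXA1 to ANXA7, ANXA9, ANXA10 and ANXA11) of the 20020 genes in the count table. They were taken by symbol, but ANXA10 heads the group because it was chosen by its difference between the groups compared below, in an earlier look at the same libraries. The group comparison is therefore given for these genes as a description, with the value of every library, and no test is read from it.

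RNA was sequenced from HCT116, a human colorectal carcinoma cell line, with 3 libraries in each of the groups CAD-KO2+IR and sgVec+IR. Where a group has several values in a row, they stand in the order of its replicate numbers. CAD-KO2+IR cells carried a guide RNA in lentiCRISPRv2 against CAD, the caspase-activated DNase encoded by DFFB, and sgVec+IR cells carried the vector. Both groups were irradiated with 8 Gy and taken after 24 h, so every library was irradiated and no comparison with unirradiated cells was made here. The knockout was 1 stable line made with 1 guide. Whether that line was a single clone is not given in the sources used here, nor is whether the libraries of a group came from separate cultures, and the spread between libraries may be technical.

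Annexins are built from repeats of a conserved fold that holds calcium against the membrane surface, and they differ in the short segment before those repeats. They take part in membrane repair, vesicle traffic and the shaping of the cortical actin layer, and several work as complexes with small EF-hand proteins of the S100 family. ANXA5 is known as the stain for phosphatidylserine on dying cells. ANXA10 is a less studied member that is normally made in the stomach lining, and in the colon it is used as a marker of serrated lesions.

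Totals ran from 14032994 to 19574144 counts per library, and 12925 genes had enough counts to be tested. Levels are given as CPM, counts relative to library size, the size scaled by TMM. DFFB, the targeted gene, was at 10, 10.1 and 12.4 CPM in CAD-KO2+IR and at 21.8, 22.9 and 20.9 CPM in sgVec+IR. Its log2 fold change was −1.02 (standard error 0.193), with an adjusted p of 0.55 in edgeR, while DESeq2 and voom called it. These values are of mRNA and do not measure the loss of CAD protein, for which the study checked its stable HCT116 lines by western blotting. Of the 7 epithelial markers, KRT8, KRT18, KRT19, EPCAM, CDH1 and CDX2 were expressed, while VIL1 had at most 3 counts in any library. Of the 6 tested, 2 were higher and 4 lower in CAD-KO2+IR, and edgeR called 0 (1 at an unadjusted p under 0.05, CDH1, which DESeq2 did not call and voom did). Their summed level was 2767 to 3939 CPM in CAD-KO2+IR and 2078 to 4032 CPM in sgVec+IR. The leukocyte marker CD3E and the fibroblast markers DCN and LUM had no count in any library, and the summed level of 6 leukocyte markers was at most 1.16 CPM. The sum of 6 fibroblast markers, nearly all of it COL1A1, was 25.9 to 39.8 CPM in CAD-KO2+IR and 12.0 to 48.9 CPM in sgVec+IR. 1 library stood apart from the rest: in sgVec+IR replicate 3, no read was counted for 7561 genes, while elsewhere this number was 4577 to 5232. Pearson correlations of log2 CPM across genes ran from 0.886 to 0.993 among sgVec+IR libraries and from 0.969 to 0.993 among CAD-KO2+IR libraries. In bulk RNA, fewer cells that express a gene and less RNA per cell cannot be told apart.

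ANXA10 (ENSG00000109511.12) is a forward-strand gene of chromosome 4 (GRCh38, 168092515 to 168187690). Its read counts were 280, 363 and 281 in CAD-KO2+IR and 669, 613 and 851 in sgVec+IR. Scaled for library size, these counts were 15.2, 19.1 and 16.0 CPM in CAD-KO2+IR and 40.9, 42.0 and 60 CPM in sgVec+IR. All CAD-KO2+IR libraries were below all sgVec+IR libraries, and the highest of the former was below the lowest of the latter by more than the spread within either group. The means were 16.8 ± 2.09 CPM (SD, n = 3) and 47.6 ± 10.7 CPM (SD, n = 3), so that ANXA10 mRNA was 2.84-fold lower in CAD-KO2+IR. In the fit of edgeR across all genes the log2 fold change was −1.5 (standard error 0.229). Among the 12925 genes tested, 57, ANXA10 included, had a log2 fold change at or below its value. The high sgVec+IR value of 60 CPM was that of replicate 3, and without that library the log2 fold change was −1.30. The difference was thus larger with that library than without it, and the cause of that library's departure was not tested. One annotated antisense gene overlaps ANXA10 and is outside the count table, and without a stated strand setting its reads cannot be told apart from those of ANXA10.

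ANXA3 (ENSG00000138772.13, chromosome 4, 78551519 to 78610451), an annexin that inhibits phospholipase A2 in assays of the protein, showed the largest difference in the other direction among the 10 genes. It was at 192, 249 and 201 CPM in CAD-KO2+IR and at 136, 116 and 130 CPM in sgVec+IR. The groups did not overlap, and here sgVec+IR replicate 3 lay between the other 2 libraries of its group. The means were 214 ± 30.7 and 127 ± 10.6 CPM (SD over the 3 libraries of a group), and the fitted log2 fold change was 0.75 with a standard error of 0.167.
The ratio of ANXA3 to ANXA10 CPM put the opposite directions into 1 value per library. Both genes were singled out by their differences between these groups, so the ratio separates the groups by that choice. It was 12.7, 13.0 and 12.5 in CAD-KO2+IR and 3.33, 2.76 and 2.17 in sgVec+IR. The ratio was thus nearly the same in the 3 CAD-KO2+IR libraries and varied more among the sgVec+IR libraries, as did ANXA10 itself.

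The promoters of ANXA10, ANXA3 and ANXA1 are shown because ANXA10 and ANXA3 differed most between the groups and because ANXA1 shares the sequence feature that set the ANXA10 promoter apart. The windows are those of RefSeq on GRCh38.p14, 250 bases before to 50 bases after the start, all on the forward strand. They are chr4:168092287-168092586 for ANXA10, chr4:78551520-78551819 for ANXA3 and chr9:73151615-73151914 for ANXA1. Capitals mark each CpG and each TATAAA upstream of the start, searched on both strands.
ANXA10: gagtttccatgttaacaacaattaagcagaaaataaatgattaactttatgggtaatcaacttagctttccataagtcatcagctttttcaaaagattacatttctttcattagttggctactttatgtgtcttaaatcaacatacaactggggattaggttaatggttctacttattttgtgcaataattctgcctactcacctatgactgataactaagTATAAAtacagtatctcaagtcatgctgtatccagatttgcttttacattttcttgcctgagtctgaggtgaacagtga
ANXA3: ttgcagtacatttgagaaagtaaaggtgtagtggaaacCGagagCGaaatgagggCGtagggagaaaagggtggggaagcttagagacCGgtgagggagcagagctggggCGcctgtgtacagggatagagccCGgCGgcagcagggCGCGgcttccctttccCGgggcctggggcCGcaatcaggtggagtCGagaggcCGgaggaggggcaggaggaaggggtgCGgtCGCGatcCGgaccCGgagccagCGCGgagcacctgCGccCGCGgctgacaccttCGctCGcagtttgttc
ANXA1: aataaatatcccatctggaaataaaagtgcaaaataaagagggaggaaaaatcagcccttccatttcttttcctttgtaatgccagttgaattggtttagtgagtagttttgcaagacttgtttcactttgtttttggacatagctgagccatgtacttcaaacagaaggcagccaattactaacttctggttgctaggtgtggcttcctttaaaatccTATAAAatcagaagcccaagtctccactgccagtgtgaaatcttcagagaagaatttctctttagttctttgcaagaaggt

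The ANXA10 window had no CpG and a GC content of 32.7%, and the ANXA1 window had no CpG and 37.7%. Each held TATAAA, starting 29 bases before the start in ANXA10 and 31 bases before it in ANXA1. The ANXA3 window had 25 CpG, 64.7% GC and no TATAAA. All 10 annexins had at least 1 window, 14 in all, of which 2 were without a CpG and 8 had at least 20. Among 21675 windows of genes in the count table the median was 21 CpG, and 1.9% had as few as ANXA10. TATAAA stood in 9.0% of those windows. ANXA2 also held TATAAA, in a window with 32 CpG, and so did 1 of the 3 windows of ANXA11. The letters are a description of the reference sequence, since neither methylation nor factor binding was measured in these libraries. Of the pair without a promoter CpG, ANXA10 did not overlap between the groups and ANXA1 did.

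**Figure D1:**
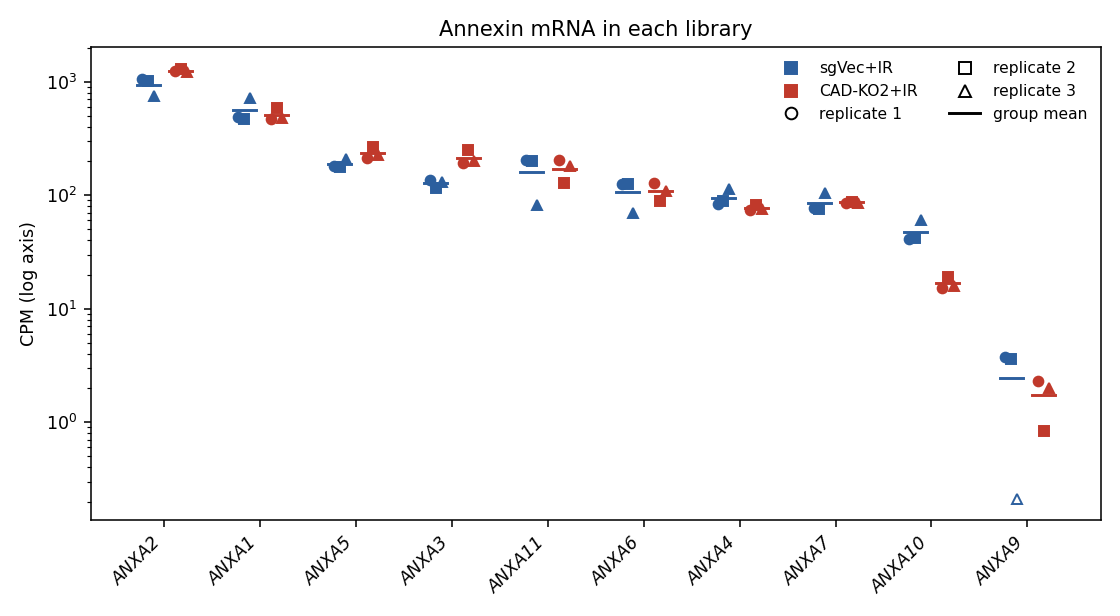
CPM of each annexin on a log axis, with 3 libraries of sgVec+IR and 3 of CAD-KO2+IR as points and group means as lines. The open triangle is sgVec+IR replicate 3 with 0 ANXA9 counts, drawn at the limit of 0.212 CPM that 3 counts would give; the ANXA10 groups are apart at 15.2 to 19.1 and 40.9 to 60 CPM.

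Another 3 annexins had groups that did not overlap, with smaller differences. ANXA2, a partner of S100A10 and the most abundant annexin here, was at 1240, 1302 and 1225 CPM in CAD-KO2+IR and at 1056, 1019 and 751 CPM in sgVec+IR. The lowest value belonged to sgVec+IR replicate 3, and the log2 fold change of 0.41 (standard error 0.158) became 0.28 without it. ANXA5, which coats membranes that expose phosphatidylserine, was at 213, 264 and 225 CPM in CAD-KO2+IR and at 180.5, 178 and 208.5 CPM in sgVec+IR. Its highest sgVec+IR library and its lowest CAD-KO2+IR library were close together, and the log2 fold change was 0.31 (standard error 0.157). ANXA4, an annexin of epithelial membranes, was lower in CAD-KO2+IR, at 73.8, 82.6 and 76.1 CPM against 83.2, 89.3 and 114 CPM in sgVec+IR. The gap between the groups was narrow, and the log2 fold change of −0.30 (standard error 0.18) was −0.15 without sgVec+IR replicate 3. Without a stated strand setting, the ANXA4 counts cannot be told apart from reads of AAK1, a gene of the count table that overlaps it on the opposite strand. An antisense gene outside the table overlaps ANXA7 likewise.

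In the other 5 annexins the groups overlapped. ANXA1, which is known for restraining inflammation, was at 468, 592 and 483 CPM in CAD-KO2+IR and at 491, 474 and 714 CPM in sgVec+IR. ANXA7, which binds the EF-hand proteins PDCD6 and SRI, was at 86.3, 87.3 and 86.0 CPM in CAD-KO2+IR and at 77.2, 75.7 and 105 CPM in sgVec+IR. In both genes the highest library was sgVec+IR replicate 3, and the other sgVec+IR libraries were close to the CAD-KO2+IR libraries or below them. The log2 fold changes were −0.12 (standard error 0.202) for ANXA1 and 0.01 (standard error 0.182) for ANXA7.
ANXA6, a large annexin of endosomes and the plasma membrane, was at 128, 88.9 and 110.0 CPM in CAD-KO2+IR and at 125, 127 and 69.9 CPM in sgVec+IR. ANXA11, which tethers RNA granules to lysosomes, was at 203, 127 and 183 CPM in CAD-KO2+IR and at 205, 199 and 82.2 CPM in sgVec+IR. Both genes were lowest in sgVec+IR replicate 3 and next lowest in CAD-KO2+IR replicate 2. Their log2 fold changes were 0.02 (standard error 0.271) and 0.08 (standard error 0.364).
ANXA9, an annexin that lacks the usual calcium sites, was the least abundant of the 10. It had 43, 16 and 35 counts in CAD-KO2+IR and 61, 53 and 0 counts in sgVec+IR. The 0 counts of sgVec+IR replicate 3 allow up to 0.212 CPM, counting error alone considered, while its fellow libraries stood at 3.73 and 3.63 CPM. With these low counts and this spread between libraries no difference between the groups was detectable for ANXA9, whose log2 fold change was −0.55 ± 0.847 (standard error). It was −1.10 without sgVec+IR replicate 3 and −0.10 without sgVec+IR replicate 1.

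**Figure D2:**
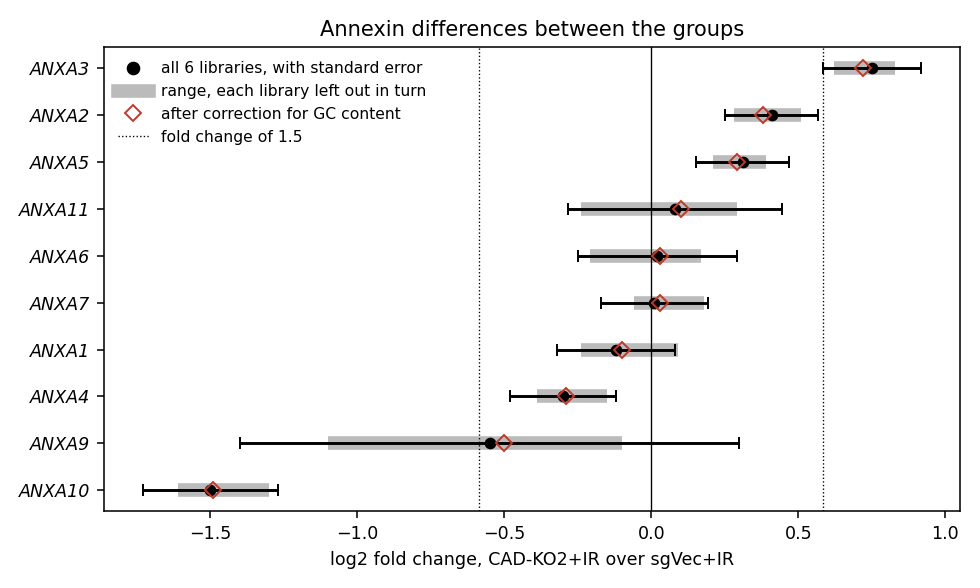
Log2 fold change of each annexin, CAD-KO2+IR over sgVec+IR, with its standard error from edgeR (black), the range over fits that each omit 1 library (grey) and the value after correction for GC content (red). ANXA10 stayed between −1.61 and −1.30 and ANXA3 between 0.62 and 0.83, while the ranges of ANXA1, ANXA6, ANXA7 and ANXA11 crossed 0.

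Over the 10 annexins, 6 had a log2 fold change above 0 and 4 below it, with a median of 0.02, and over all genes tested the median was −0.0109. Groups did not overlap for 3 annexins that were higher in CAD-KO2+IR (ANXA2, ANXA3 and ANXA5), where 5.23% of all genes tested were of that kind. Likewise 2 annexins were lower without overlap (ANXA4 and ANXA10), as were 5.01% of all genes. A call needed both a fold change of 1.5 or more and a Benjamini-Hochberg adjusted p below 0.05. By the quasi-likelihood test of edgeR 0 of the 10 annexins were called, as against 0.0309% of all genes, and 3 of them had an unadjusted p under 0.05, as did 2.85% of all genes. In DESeq2 the annexins called were ANXA3 and ANXA10, where 0.364% of all genes were called. Voom with sample weights also called ANXA3 and ANXA10, with 5.15% of all genes called. Its weights were 0.0404 for sgVec+IR replicate 3 and 0.154 for CAD-KO2+IR replicate 2, so its calls rest mostly on the other libraries. Without sgVec+IR replicate 3, edgeR called ANXA10 and 0.167% of all genes. Because this contrast brought ANXA10 to attention, nothing is read from these counts.

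Ordered by level per length of merged exons, ANXA2 (125 ± 23.0 CPM per kb, SD over 6 libraries) and ANXA1 (118 ± 21.5 CPM per kb) came before the others. ANXA2 was above ANXA1 in 5 of the 6 libraries, the exception being sgVec+IR replicate 3, so their order was not beyond the spread. ANXA5 followed with 69.7 ± 10.5 CPM per kb and held the same place in all 6 libraries. ANXA3 (33.3 ± 10.1 CPM per kb) and ANXA7 (30.1 ± 3.62 CPM per kb) exchanged places with the group: ANXA3 was above ANXA7 in the 3 CAD-KO2+IR libraries and below it in the 3 sgVec+IR libraries. ANXA6, ANXA11 and ANXA10 lay at 19.9, 19.6 and 17.8 CPM per kb, and neither ANXA6 and ANXA11 nor ANXA11 and ANXA10 kept 1 order in all libraries. For ANXA10 this mean hides the group difference, from 9.26 CPM per kb in CAD-KO2+IR to 26.3 CPM per kb in sgVec+IR. Among the 10 annexins its rank was 8 in all CAD-KO2+IR libraries and 8, 7 and 5 in sgVec+IR. ANXA4 (7.83 CPM per kb) was below ANXA10 in 6 of 6 libraries and above ANXA9 (1.14 CPM per kb) in 6 of 6. Merged exons count all annotated isoforms, so genes with many isoforms, such as ANXA4 with 11.05 kb, are placed lower than their main transcript would be.

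Summed over the 10 genes, annexin mRNA was 2621, 2813 and 2607 CPM in CAD-KO2+IR and 2398, 2323 and 2235 CPM in sgVec+IR. The sum was higher in each CAD-KO2+IR library than in any sgVec+IR library. ANXA2 supplied 46.3% to 47.3% of the annexin counts in CAD-KO2+IR but 44.0%, 43.9% and 33.6% in sgVec+IR. ANXA10 supplied 0.579% to 0.68% in CAD-KO2+IR and 1.71% to 2.69% in sgVec+IR. The 3 pseudogenes of ANXA2 in the annotation are outside the count table, and reads that match both them and ANXA2 make its level uncertain.
ANXA8, ANXA8L1 and ANXA13, the annexins beyond these 10, were in the table with too few counts to be tested. ANXA8 had 14 counts over all 6 libraries, ANXA13 had 5 and ANXA8L1 had 0. ANXA8 and ANXA8L1 are near-identical copies, so counts of either are uncertain.

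Single libraries departed from the others of their group for many annexins, and the departures moved with the GC content of the transcript. ANXA6 (56.0% GC in its longest transcript), ANXA9 (55.2%) and ANXA11 (52.3%) were above the median of 48.7% over genes tested, and the other 7 annexins were below it, from 38.9% to 46.3%. In sgVec+IR replicate 3, log2 CPM differed from the mean of the other libraries of the group by −0.85 for ANXA6 and −1.29 for ANXA11, and by 0.57 for ANXA1, 0.53 for ANXA10, 0.45 for ANXA7 and 0.41 for ANXA4. In CAD-KO2+IR replicate 2 the same differences were −0.41 for ANXA6, −0.60 for ANXA11, 0.31 for ANXA1 and 0.29 for ANXA10. Apart from ANXA2 and ANXA3 in sgVec+IR replicate 3, the AT-rich annexins thus lay above their group's other libraries in both places. The GC-rich ones lay below them. In sgVec+IR replicate 3, ANXA2 was lower than in the other libraries of the group (−0.47) and ANXA3 lay between them (0.05). For ANXA9 the difference in sgVec+IR replicate 3 was −4.99, a value that depends on the prior count of 2 because that library had 0 counts.
Across the 12913 genes with a GC content, the same differences had a Pearson correlation with GC content of −0.61 in sgVec+IR replicate 3 and −0.76 in CAD-KO2+IR replicate 2. Genes are not independent replicates, and the libraries of a group share the mean they are set against, so these correlations are descriptions. The part of GC content in the group differences was not tested beyond the correction that follows. In sgVec+IR replicate 3, 5 of the 10 annexins and 65.8% of all genes differed by more than 0.5 on the log2 scale. After a correction for GC content, chosen after seeing the data, the log2 fold change of ANXA10 was −1.49 and that of ANXA3 was 0.72. With that correction edgeR called ANXA10 and 0.333% of all genes.

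**Figure D3:**
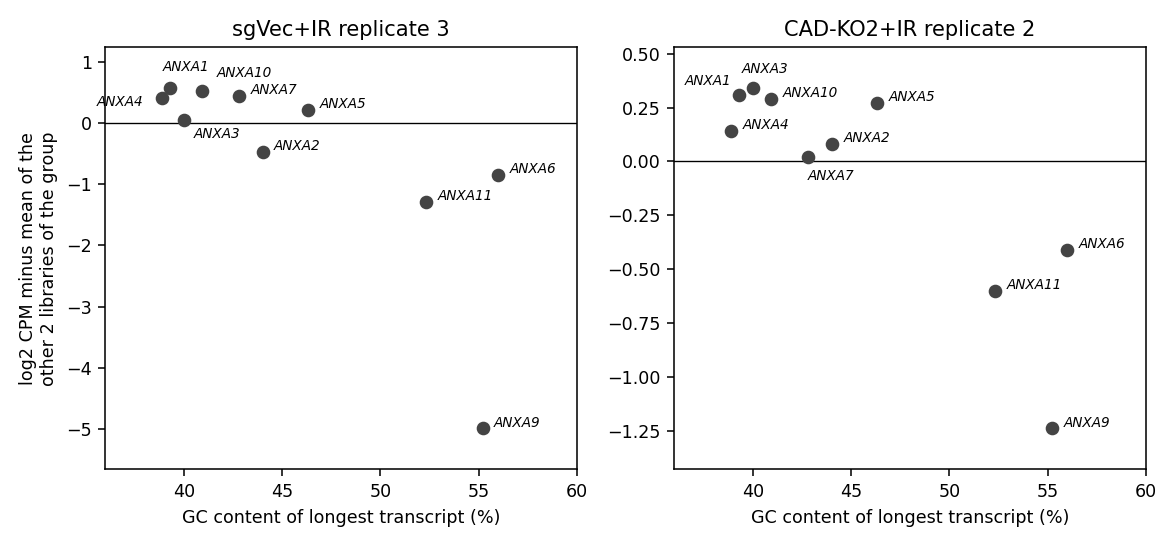
Each annexin's difference in log2 CPM from the mean of the other 2 libraries of its group, against the GC content of its longest transcript in percent, in the library of each group with the largest median difference over all genes. ANXA6, ANXA9 and ANXA11, at 52.3% GC or more, lie below 0 in both panels, and ANXA10, at 40.9% GC, lies at 0.53 and 0.29.

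The genes around ANXA10 were compared in the same way. Of the 5 tested genes on each side, 8 had a log2 fold change below 0 and 2 above it, from −0.83 to 0.08, with a median of −0.33. None was called by edgeR. DDX60 and DDX60L, interferon-induced helicase-like genes that lie 124 and 264 kb from the start of ANXA10, had log2 fold changes of −0.21 (standard error 0.291) and −0.46 (standard error 0.205). The groups overlapped for DDX60 and did not for DDX60L, at 89.2 and 123 CPM in the means of CAD-KO2+IR and sgVec+IR. PALLD, an actin-binding protein gene, had −0.19 and CBR4, a mitochondrial reductase gene, −0.49. On the other side SPOCK3 (−0.73) and TLL1 (−0.83) were at most 2.68 CPM in the mean of either group. CPE, a peptide-processing enzyme gene that starts at −2731 kb from ANXA10, had −0.39 (standard error 0.155) with no overlap between groups.
Without sgVec+IR replicate 3, a comparison added after seeing the data, the median of the 10 neighbours was 0.03 and CBR4 was at 0.04, whereas ANXA10 was at −1.30, CPE at −0.34 and DDX60L at −0.29. The value of ANXA10 was lower than that of each of its 10 neighbours with all libraries and without that one. Because ANXA10 was chosen by this contrast and its neighbours were not, that order was all but set beforehand, and nothing is read from it.

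**Figure D4:**
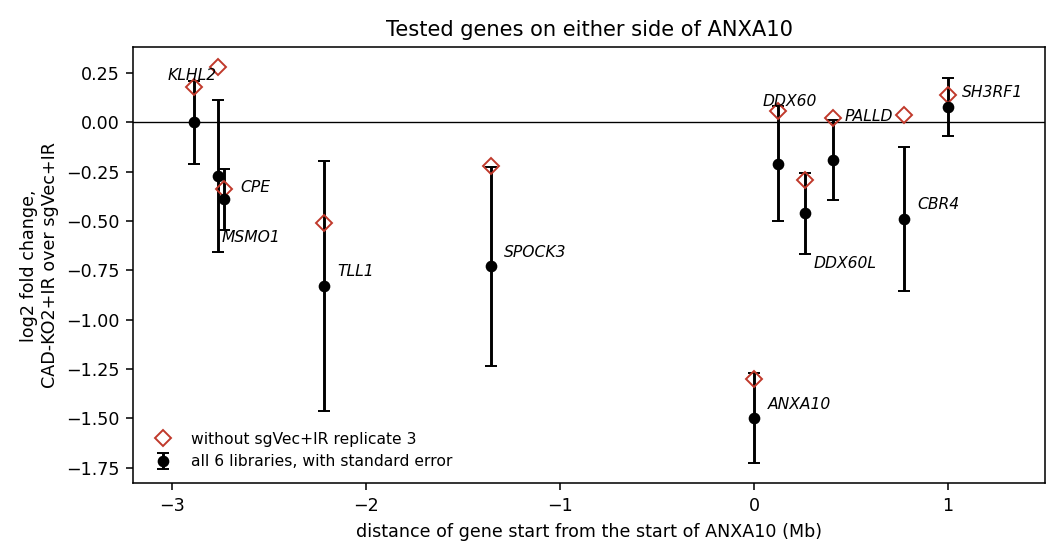
Log2 fold change, CAD-KO2+IR over sgVec+IR, of ANXA10 and the 5 tested genes on each side, against the distance of each gene's start from that of ANXA10 in Mb. Black points carry standard errors and use 6 libraries, red diamonds leave out sgVec+IR replicate 3; ANXA10 lies at −1.5 and −1.30, and its neighbours between −0.83 and 0.28.

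The 5 tested genes whose log2 CPM followed ANXA10 most closely over the 6 libraries were CPE (Pearson r = 0.997), KCNQ5 (0.993), NKAIN1 (0.993), OR2A7 (0.992) and CELF2 (0.992). With 6 libraries in separate groups, such a value mostly repeats the group difference and the order within sgVec+IR, and no p is given. CPE was at 44.4, 47.9 and 46.5 CPM in CAD-KO2+IR and at 57.9, 59.1 and 64.7 CPM in sgVec+IR. It thus shared the order of ANXA10 over the libraries at a smaller difference. KCNQ5, a potassium channel gene, was at 0.89 and 4.72 CPM in the means of CAD-KO2+IR and sgVec+IR, and NKAIN1 at 3.69 and 6.61 CPM. CELF2, a splicing regulator, was at 1.57 and 56.9 CPM, and OR2A7, of the olfactory receptor family whose members can share reads, was at 2.16 and 4.70 CPM. In 5 of the 5 genes the groups did not overlap and CAD-KO2+IR was lower, where 5.01% of all genes tested were of that kind. This follows from choosing them by their likeness to ANXA10, so nothing is read from it.
Within the family, log2 CPM of ANXA10 over the libraries had r = 0.86 with ANXA4, −0.86 with ANXA3 and −0.90 with ANXA2, and −0.43 with ANXA11. ANXA6 and ANXA11 had r = 0.99 with each other and −0.98 and −0.99 with ANXA1. In each of these genes but ANXA3, sgVec+IR replicate 3 and CAD-KO2+IR replicate 2 departed most from their groups. Such r values carry those departures. In ANXA3, CAD-KO2+IR replicate 2 departed most from its group, by 0.34 in log2 CPM, while sgVec+IR replicate 3 departed least, by 0.05. Whether the genes are regulated together was not tested.

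The proteins that annexins work with were listed by role. Their counts stand beside the shares of all genes tested, of which 2.85% had an unadjusted p under 0.05 in edgeR, 0.364% were called by DESeq2 and 5.15% by voom. Of 7 EF-hand partners, all tested, 4 had a log2 fold change above 0 and 3 below it, the median being 0.04, and edgeR called 0 (1 with an unadjusted p under 0.05; DESeq2 and voom called 0). S100A10, which joins ANXA2 in a heterotetramer, was at 150.2, 178 and 153 CPM in CAD-KO2+IR and at 102, 102 and 159 CPM in sgVec+IR. As in ANXA1, the high sgVec+IR value was that of replicate 3, and it alone made the groups overlap. For S100A11, the partner of ANXA1, the log2 fold change was 0.24 (standard error 0.200) and for S100A6, a partner of ANXA11, 0.20 (standard error 0.265). S100A1, at 0.628 and 2.04 CPM in the means of CAD-KO2+IR and sgVec+IR, had the lowest value of the list, −1.68 (standard error 0.668, adjusted p = 1 in edgeR).

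In the plasminogen system, which the complex of ANXA2 and S100A10 serves at the cell surface, 3 of the 5 genes listed were tested and all 3 had a log2 fold change below 0, with a median of −0.12. The tests of edgeR, DESeq2 and voom called 0 of them, and 0 had an unadjusted p under 0.05 in edgeR. PLG, plasminogen itself, had no count in any library. PLAT, which encodes the tissue-type activator, was at 14.8, 12.9 and 16.3 CPM in CAD-KO2+IR and at 19.0, 21.2 and 9.94 CPM in sgVec+IR, with overlapping groups and the lowest value in sgVec+IR replicate 3. The log2 fold changes were −0.19 (standard error 0.305) for PLAT, −0.12 (standard error 0.222) for the urokinase gene PLAU and −0.07 (standard error 0.195) for PLAUR, its receptor.

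Among 12 genes of membrane repair, 6 were higher and 6 lower, with a median of 0.01, and edgeR called 0 (1 at an unadjusted p under 0.05; voom called 2 and DESeq2 0). The gene with the highest value was AHNAK, a very large scaffold protein that ANXA2 and S100A10 hold at the membrane. AHNAK was at 1352, 1338 and 1324 CPM in CAD-KO2+IR and at 950.0, 985.5 and 989 CPM in sgVec+IR, its log2 fold change being 0.46 (standard error 0.106, adjusted p = 0.997 in edgeR). Its groups were far apart for their spread, and sgVec+IR replicate 3 did not stand apart. DYSF, the membrane repair protein dysferlin, had the lowest value, −0.51 (standard error 0.823), with 0 counts in sgVec+IR replicate 3. The genes called by voom were DYSF and CAV1, the caveolin of surface pits. CAV1 was at 522, 688 and 572 CPM in CAD-KO2+IR and at 370.1, 363 and 567 CPM in sgVec+IR, where replicate 3 alone overlapped the other group (log2 fold change 0.45, standard error 0.218, adjusted p = 1 in edgeR).

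Of 11 scramblases and flippases that set the exposure of phosphatidylserine, the lipid that ANXA5 binds, 8 were tested, 3 higher and 5 lower, with a median of −0.17, and edgeR called 0 (1 at an unadjusted p under 0.05; voom called 1 and DESeq2 0). Their values ran from −1.28 (standard error 0.387) for the flippase gene ATP8A1, at 2.93 and 7.22 CPM, to 0.32 (standard error 0.204) for the scramblase gene ANO6. XKR8, the scramblase that caspases cut open, was at −0.09 (standard error 0.213). The formyl peptide receptors FPR1, FPR2 and FPR3, through which ANXA1 signals, were too low to be tested. Of the eicosanoid enzymes listed with them, PTGS1 was at 9.95 and 5.61 CPM in the means of CAD-KO2+IR and sgVec+IR (log2 fold change 0.82, standard error 0.258, adjusted p = 1 in edgeR). PTGS2 and PLA2G4A were at 0.91 (standard error 0.799) and 0.13 (standard error 0.289). PTGS2 was at most 0.949 CPM in any library and had 0 counts in sgVec+IR replicate 3. In that list, with a median of 0.82, edgeR and DESeq2 called 0 of the 3 genes tested (1 at an unadjusted p under 0.05), and voom called 1.

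**Figure D5:**
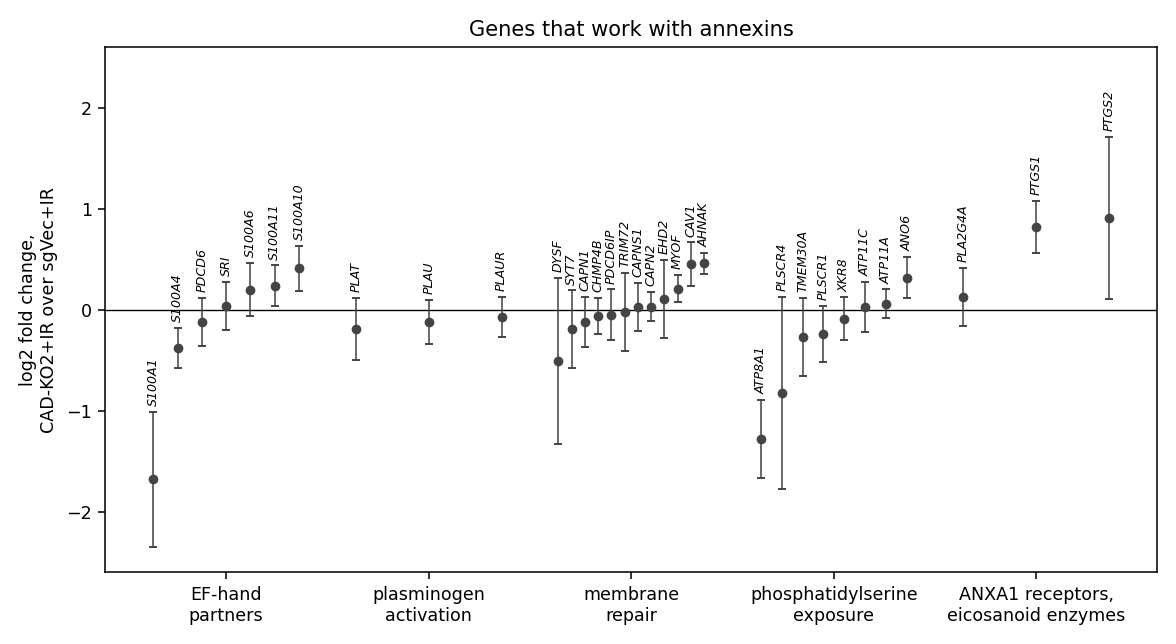
Log2 fold changes, CAD-KO2+IR over sgVec+IR, with standard errors, of the tested genes of 5 lists of proteins that work with annexins. Most values lie near 0, with S100A1 at −1.68 and ATP8A1 at −1.28 lowest and PTGS2 at 0.91 highest. PTGS2 was at most 0.949 CPM in any library.

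Other genes of the stomach lining, where ANXA10 is normally found, were nearly silent in both groups. Of 12 such genes, 1 was tested and 6 had at most 3 counts in every library, and TFF1, TFF2, GKN1 and GKN2 had 0 counts in all 6. Their summed level was 2.28 to 2.55 CPM in CAD-KO2+IR and 2.63 to 5.01 CPM in sgVec+IR, below that of ANXA10 alone in each library. VSIG1, the gene tested, was at 1.25, 0.527 and 0.569 CPM in CAD-KO2+IR and at 0.795, 1.37 and 2.61 CPM in sgVec+IR, with overlapping groups (log2 fold change −0.99, standard error 0.624). ANXA10 was thus expressed in these cells without the other genes of that list at a comparable level.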

How the data were processed

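After read trimming by fastp, the authors counted reads with featureCounts (version 1.5.0-p3) and deposited these unnormalized counts for each gene, 1 column per library, matched here to samples by title. The aligner, annotation and strand setting are not given in the sources used here, and the submitters' processing notes name the mouse build mm10 whereas the gene identifiers are human. Positions and lengths come from GENCODE release 29 (19823 of 20020 identifiers matched) and promoters from RefSeq, so coordinates describe the genes, not the alignment.

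Genes were kept by filterByExpr in edgeR 4.0.16 (minimum count 10, minimum total 15; R 4.3.3), scaled by TMM and compared with edgeR's quasi-likelihood test (legacy set to FALSE) with Benjamini-Hochberg adjustment over 12925 genes. A standard error is the log2 fold change divided by the square root of its F value. DESeq2 1.42.0, a later version of the study's tool, and limma 3.58.1 (voom with sample weights) were alternatives. The DESeq2 calls given here come from this fit, after the same filter, and are not the study's own list. The study reported more genes at the same thresholds. GC content is that of the longest transcript, and its correction used a lowess trend with a span of 0.3. Scripts were tested on simulated data.

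The annexins, the partner and marker lists and the tests were chosen with earlier results of these data known, and 1 gene of a partner list is not reported here and was left out of its counts. The genes named are the 10 annexins, the extremes of each list, any list gene called by a tool, S100A10, S100A11 and S100A6, the neighbours of ANXA10, and the 5 genes most like it. KRT8, KRT18, KRT19, EPCAM, CDH1, CDX2, PLAU, PLAUR, PLAT, XKR8 and PLA2G4A and further list genes were named to describe their lists after their values were seen. Totals per library ran from 14032994 to 19574144 counts, and limits from 0 counts cover counting error only.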

Additional observations from a re-analysis of the deposited data

How the results depend on the processing

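The log2 fold change of ANXA10 ran from −1.61 to −1.30 over 13 alternatives, the lowest without CAD-KO2+IR replicate 2 and the highest without sgVec+IR replicate 3, and no annexin's value moved by more than the spread between libraries. The sign of ANXA1, ANXA6 and ANXA11 changed without sgVec+IR replicate 3 (0.09, −0.21 and −0.24) and that of ANXA7 without sgVec+IR replicate 1 or 2 (−0.06 each). ANXA6 and ANXA11 also changed sign without CAD-KO2+IR replicate 1 (−0.10 and −0.05) and with voom (−0.15 and −0.11). The number of annexins called was 0 in edgeR, 2 in DESeq2, 2 with voom and sample weights and 1 after GC correction. All genes called were 4 in edgeR, 47 in DESeq2, 666 with voom and 43 after GC correction, and partner genes called were 0, 0, 4 and 0. With each library left out in turn, all genes called ran from 0 to 22, annexins called from 0 to 1 and partner genes called stayed at 0; the highest numbers came without sgVec+IR replicate 3. The cause of these changes was not tested. Without CAD-KO2+IR replicate 1, 2 or 3 edgeR called 0 genes, with 194, 217 and 160 at an unadjusted p under 0.05. RLE normalization, no filter on low counts and the legacy fit left 4 genes and 0 annexins called. RLE and library size alone left 5 annexins whose groups did not overlap. By the mean over all libraries ANXA10 was eighth by level per kb and ninth by CPM. Same-numbered libraries showed no pairing (correlations of their deviations 0.468, −0.545 and −0.379, with no CAD-KO2+IR library closest to its own number). That cannot exclude shared cultures or batches, because CAD-KO2+IR replicate 2 and sgVec+IR replicate 3, which departed most from their groups, carry different numbers. The replicate block gave 0 called genes (146 at an unadjusted p under 0.05 in edgeR), with ANXA10 at −1.49.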
